A study of Mus musculus with 3 samples.

Results

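Aminoacyl-tRNA synthetases were examined in RNA bound to tagged ribosomes from the prefrontal cortex. The set held 36 genes, chosen by name as the enzymes of the cytosol (20 genes) and of mitochondria (16 genes, with symbols ending in 2), out of 32531 gene symbols in the count tables. All 36 had a row and all 36 reached 1 CPM (counts scaled to the total of the library) in each of the 3 libraries. The set was proposed because the Lars2 message is among the highest of all and the Vars2 message differs between libraries, so these properties of those 2 genes are described and not tested. The mice were untreated, with no age given in the labels, and came from the Slc17a6-TRAP JX883 line, a single line in which Slc17a6, the gene of a vesicular glutamate transporter, drives EGFP fused to ribosomal protein L10a, so that ribosomes of cells using this driver can be pulled down with antibodies to EGFP. Each library came from 3 mice pooled, and the 3 libraries formed 1 group with no treatment, input or untagged comparison analysed here. Levels therefore describe what was recovered on the beads, where ribosome-bound messages and RNA that came along unbound cannot be told apart.

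Each synthetase joins 1 amino acid to its transfer RNA, which is the step that fixes the genetic code. Protein synthesis in the cytosol and inside mitochondria uses separate tRNAs and, for most amino acids, separate enzymes, all encoded in the nucleus. The glycine and lysine enzymes, Gars and Kars, serve both compartments from a single gene, and mammalian mitochondria charge glutamine tRNA indirectly, through the glutamate enzyme Ears2 and an amidotransferase, so no mitochondrial counterpart of these genes is on the list. In people, dominant changes in several cytosolic enzymes, Gars and Yars among them, cause peripheral neuropathy, and recessive loss of mitochondrial enzymes causes disorders of the white matter, hearing and ovary.

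The libraries held 12592174, 8964137 and 12648577 counts over named genes in replicates 1, 2 and 3. Synthetase messages other than Lars2 took 0.176%, 0.177% and 0.176% of those counts, and Lars2 alone made up 73.5%, 71.5% and 74.8% of the counts of the whole set. TPM, which divides counts by gene length before scaling, is used for comparing genes. Markers of glutamatergic neurons were led by Camk2a (1934 ± 182 TPM, SD, n = 3) and those of GABAergic neurons by Gad2 (533 ± 37.0 TPM). List medians were 255 TPM for glutamatergic, 55.5 for GABAergic, 17.4 for astrocyte and 81.6 for oligodendrocyte markers. Among other cell types, 6 of 6 astrocyte markers, led by Aldoc at 534 TPM, and 4 of 4 oligodendrocyte markers reached 1 CPM in every library. Of 4 microglia markers 3 did so, led by Csf1r at 11.3 TPM, while C1qa had 0 counts. Of 3 endothelial markers 1 did so, Flt1 at 0.888 TPM, and Cldn5 had 0 counts in replicates 2 and 3. Of 3 blood markers 0 did so, the highest being Hbb-bs at 9.25 TPM, a short gene, and Hba-a1 had no row.

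Cytosolic enzymes spanned a wide range of levels. The cytosolic median was 60.6, 60.6 and 59.6 TPM in replicates 1, 2 and 3, and the average over libraries ran between 4.83 TPM for Vars and 487 TPM for Nars. Over all 14774 genes tested, the median of the 13569 with a length was 19.7, 19.5 and 19.6 TPM. In bulk RNA, fewer cells that use a gene and less RNA per cell cannot be told apart.

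The asparagine enzyme Nars was the highest cytosolic member, with 509.8, 510.9 and 439.9 TPM in replicates 1, 2 and 3. It was followed by Farsb (226 ± 22.8 TPM, SD, n = 3), Hars (197 ± 19.3), Gars (193 ± 17.1) and Wars (129.7 ± 11.2), the enzymes for phenylalanine, histidine, glycine and tryptophan. Nars stood above the next member in all 3 libraries, while the libraries of Hars overlapped those of both Farsb and Gars, and each Farsb library lay above each Gars library. A middle group of Rars, Sars, Iars, Yars, Mars, Kars, Aars and Dars lay between 43.8 and 86.1 TPM. Eprs, Tars, Lars, Cars and Qars lay between 13.0 and 20.9 TPM.

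Farsa and Vars were lowest among the cytosolic members. Farsa had 5.85, 8.76 and 5.50 TPM from 67, 71 and 63 counts, and the valine enzyme Vars had 4.59, 3.89 and 6.005 TPM from 65, 39 and 85 counts. The ranges of Vars and Farsa over the libraries overlapped. Nars exceeded Vars by 6.53 ± 0.40 on the scale of log2(TPM + 0.5).

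Farsa and Farsb encode the catalytic alpha and the beta subunit of the same enzyme, cytosolic phenylalanyl-tRNA synthetase, which holds equal numbers of both. Farsb (ENSMUSG00000026245.16, mm10 chromosome 1, 78417975 to 78488897) had 212, 252 and 213 TPM in replicates 1, 2 and 3. Farsa (ENSMUSG00000003808.18, chromosome 8, 84856989 to 84869257) stood far lower in each. Farsb exceeded Farsa by 5.07, 4.77 and 5.16 log2 units in replicates 1, 2 and 3 (SD 0.20), on average 31.9-fold. With the length of the longest annotated transcript in place of merged exons it was 30.3-fold. For Farsb, 9.47% of exonic bases lay in exons of Sgpp2 on the other strand, and for Farsa none were shared with another gene.

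**Figure D1:**
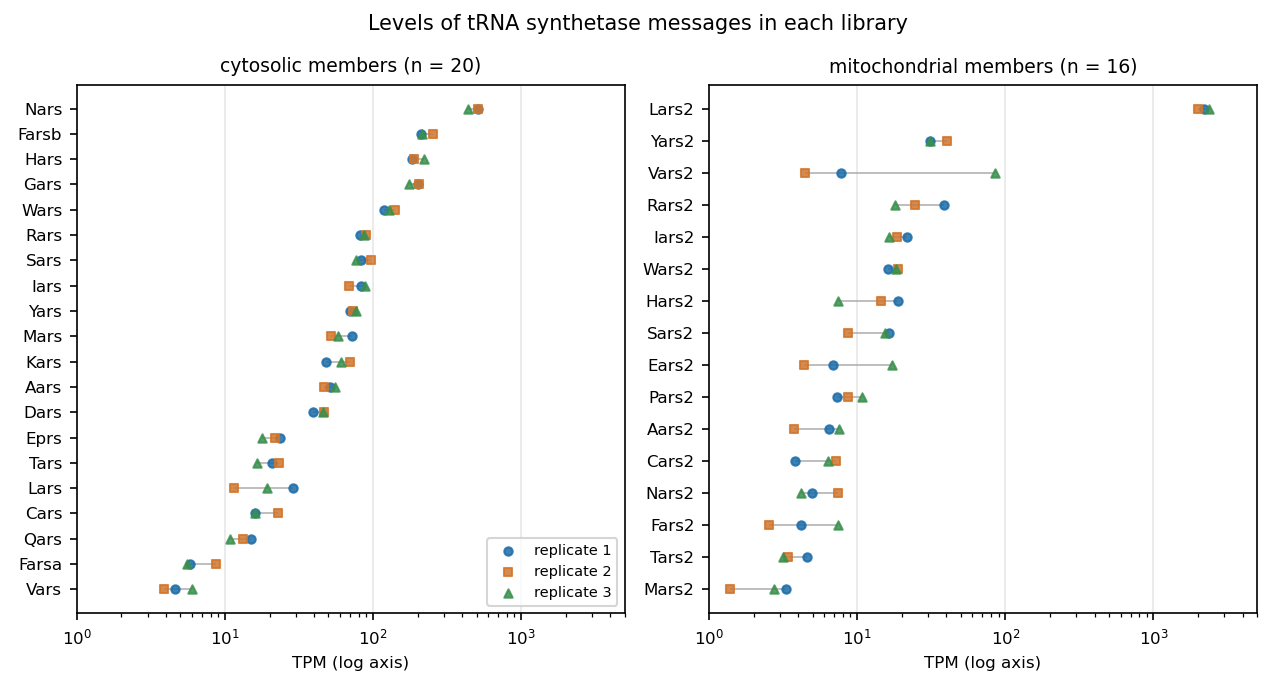
TPM of each synthetase message in each library on a log axis, with cytosolic members on the left and mitochondrial members on the right, ordered by mean, and a grey line for the range. Lars2, near 2189 TPM, stands above every other member, and Vars2 has a single library, replicate 3 at 85.4 TPM, apart from the others.

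In animal cells, 8 cytosolic enzymes assemble with 3 scaffold proteins into the multi-synthetase complex. Messages of the 8 enzymes were not at a common level. On average over the libraries Rars was highest, with 81.7, 89.99 and 86.5 TPM in replicates 1, 2 and 3. The glutamine enzyme Qars was lowest on average, with 14.9, 13.2 and 10.8 TPM. Iars lay above Rars in replicates 1 and 3 (83.5 and 88.8 TPM). Lars lay below Qars in replicate 2 (11.5 TPM), and on average with the longest transcript as the length (20.2 against 21.0 TPM). Rars exceeded Qars by 2.69 ± 0.27 log2 units, 6.47-fold, or 4.68-fold with the longest transcript as the length.

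The bifunctional glutamate and proline enzyme Eprs stood at 20.9 ± 2.91 TPM, but its merged exons reach 18102 bases and its longest transcript 5638, and with the transcript length it stood at 50.7 TPM. The scaffold messages Aimp2, Eef1e1 and Aimp1 stood at 44.6 ± 8.67, 29.9 ± 5.83 and 22.0 ± 3.30 TPM. Complex enzymes had a median of 51.8 TPM and the 12 cytosolic enzymes outside the complex one of 79.3 TPM, with ranges that overlapped.

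**Figure D2:**
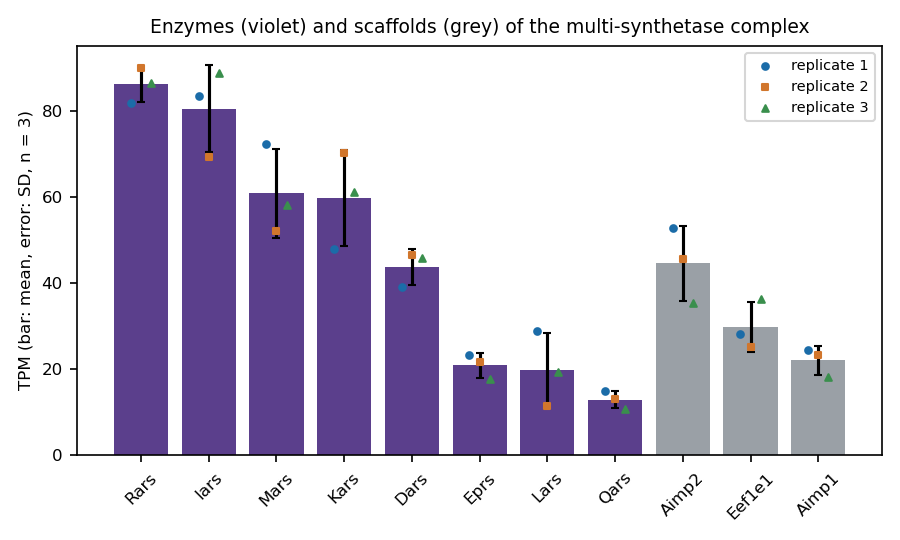
Mean TPM with SD (n = 3 libraries) and the value of each library for the enzymes (violet) and scaffolds (grey) of the multi-synthetase complex. The enzymes run between 13.0 TPM for Qars and 86.1 TPM for Rars, and the 3 scaffolds lie inside that range.

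Mitochondrial enzymes were lower as a group, apart from Lars2. Their median was 7.53, 8.003 and 13.0 TPM in replicates 1, 2 and 3. Per library, the cytosolic median exceeded the mitochondrial one by 2.91, 2.83 and 2.17 log2 units, on average 2.64 ± 0.41 (SD, n = 3) or 6.23-fold. With Lars2 and Vars2 left out of the mitochondrial list the difference was 2.83 ± 0.17. Of the 20 cytosolic members, 18 averaged above the mitochondrial median.

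Leaving out Lars2 and Vars2, the mitochondrial members were led by Yars2, the tyrosine enzyme, with 30.9, 40.2 and 31.1 TPM in replicates 1, 2 and 3. Vars2 averaged 32.5 TPM, a mean set by replicate 3. Rars2 stood at 27.1 ± 10.6 TPM, overlapping Yars2, and with the longest transcript as the length Rars2 (30.3 TPM) averaged above Yars2 (28.9 TPM). The isoleucine and tryptophan enzymes Iars2 (18.9 ± 2.72) and Wars2 (17.7 ± 1.43) lay within their spread of each other. Hars2 and Sars2 stood at 13.6 ± 5.75 and 13.4 ± 4.21 TPM, and Pars2 at 8.91 ± 1.74. The lowest were Aars2, Cars2, Nars2, Fars2, Tars2 and Mars2, between 2.47 and 5.88 TPM. Iars2 shared 24.2% of its exonic bases with Rab3gap2 and an antisense gene, and stood at 24.9 TPM with those bases left out of its length.

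Lars2, the mitochondrial leucine enzyme (ENSMUSG00000035202.8, mm10 chromosome 9, 123366927 to 123462666), had 2198, 2007 and 2364 TPM in replicates 1, 2 and 3, rank 34 on the TPM scale among genes with a length. Its mean was 64.3 times that of Yars2, the next mitochondrial member, and 4.50 times that of Nars. The 3 libraries did not differ beyond a ratio of 1.18 in CPM. Merged exons of Lars2 span 11089 bases and its longest transcript 3894, and with that length the level was 4704 TPM.

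The neighbours of Lars2 were far lower. Tmem158, the nearest listed gene on the side of lower coordinates at 106163 bases, stood at 141 ± 16.4 TPM, and Limd1, at 16040 bases on the other side, at 4.37 ± 2.16 TPM. The longest coding transcripts of the 36 members were aligned with the GENCODE M21 transcripts of other genes. Lars2 was the only one with a stretch of at least 50 bases at 95% identity or more to a gene at another locus. That stretch of 72 bases lay in exon 21, the last, on chromosome 9 between 123462048 and 123462119, starting 370 bases past the stop codon in the 3′ untranslated region, and was 98.6% identical to the noncoding gene Gm15564, which has no row in the tables. None of 9 Lars2 transcripts aligned with any of 37 mitochondrially encoded transcripts, mitochondrial ribosomal RNAs included, at an E value of 0.01. The ribosomal RNA precursor Rn45s has no entry under that symbol in GENCODE M21, so likeness of Lars2 to it was not examined.

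Ribosomal RNA precursor counts had another order over the libraries than Lars2. Rn45s took 6.43%, 6.98% and 8.19% of counts in replicates 1, 2 and 3, against 4886, 4435 and 5230 CPM for Lars2, so replicate 3 was highest for both, while replicate 2 was lowest for Lars2 and replicate 1 for Rn45s. The part of ribosomal RNA or of the alike stretch in the Lars2 counts was not tested.

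Cytosolic and mitochondrial enzymes were next paired by amino acid, which gave 17 pairs with the alpha and beta subunits of the phenylalanine enzyme and the bifunctional Eprs counted with each counterpart. In 14 of the 15 pairs without Lars2 or Vars2, the cytosolic message was higher in 3 of 3 libraries. Each of those 14 had an exact two-sided sign-flip permutation p of 0.25, the smallest that 3 libraries allow, so no pair could pass 0.05. The median of the 15 differences was 2.30 log2 units, or 4.92-fold.

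Among the 15 pairs the widest gap was that of asparagine, where Nars stood at 487 ± 40.7 TPM and Nars2 at 5.50 ± 1.69 TPM, a difference of 6.38 ± 0.31 log2 units or 83.1-fold. Farsb exceeded Fars2 by 5.54 ± 0.82, Mars exceeded Mars2 by 4.41 ± 0.34 and Hars exceeded Hars2 by 3.90 ± 0.80. Wars exceeded Wars2 by 2.84 ± 0.05, the pair with the smallest spread over libraries. Nars2 had 4.95, 7.39 and 4.15 TPM in replicates 1, 2 and 3, none of them near the Nars values.

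The narrowest gap among the 15 was that of Farsa over Fars2 (0.55 ± 1.01 log2 units), followed by Yars over Yars2 (1.10 ± 0.23), Eprs over Pars2 (1.19 ± 0.47) and Eprs over Ears2 (1.31 ± 1.13). Eprs over Ears2 was 1.70, 2.19 and 0.04 in replicates 1, 2 and 3, the last being the library with the highest Ears2 level. With the longest transcript as the length, Yars over Yars2 was 1.96, Eprs over Pars2 2.81 and Eprs over Ears2 2.88. Farsa over Fars2 was 0.43, 1.61 and -0.41 in replicates 1, 2 and 3, with no common direction (exact sign-flip permutation p = 0.5). Both remaining pairs ran the other way and are described only, since they were chosen for their values. Lars minus Lars2 was -6.23, -7.39 and -6.90 log2 units in replicates 1, 2 and 3, so Lars2 was on average 114.6-fold higher, or 242-fold with the longest transcript as the length. Vars minus Vars2 was -0.70, -0.16 and -3.72 units, with replicate 3 apart.

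**Figure D3:**
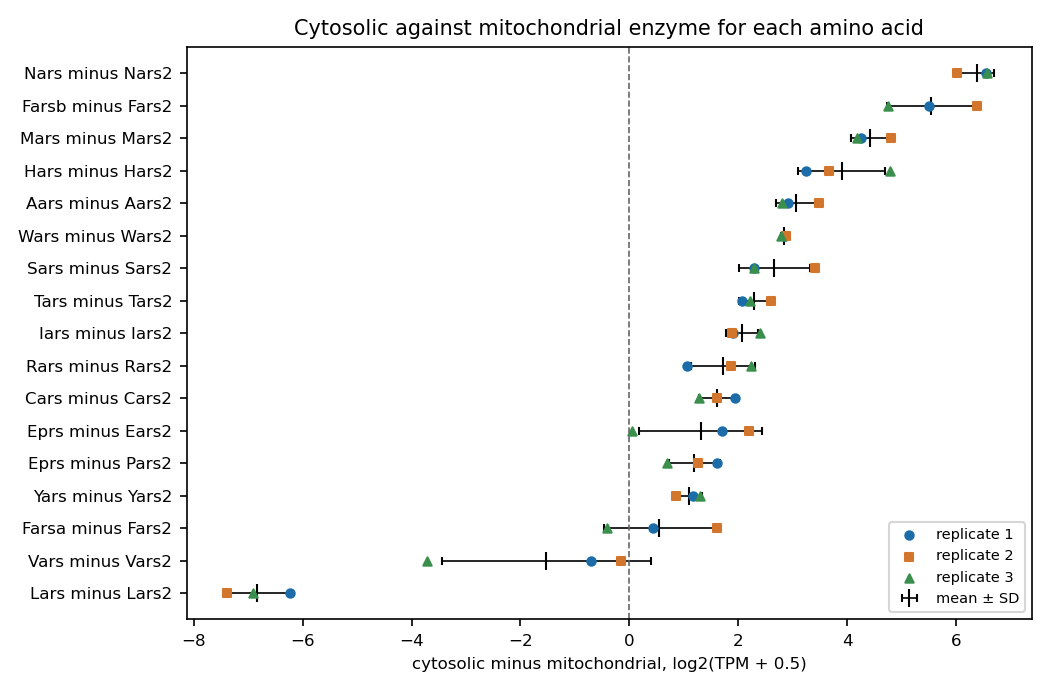
Difference in log2(TPM + 0.5) between the cytosolic and the mitochondrial enzyme for each amino acid, by library, with mean ± SD (n = 3). Points right of the dashed line at 0 are higher for the cytosolic gene, which holds for every library in 14 of 17 pairs, and the Lars and Vars pairs lie left of it.

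Promoter sequences were examined because cytosolic synthetases are known targets of the stress-induced transcription factor ATF4, which binds an amino acid response element. RefSeq promoters on GRCm38.p6, 250 bases before to 50 after the start, were matched for 27 of the 36 members. Cars, Hars, Lars, Nars, Rars, Vars, Wars, Hars2 and Pars2 had no entry. The core searched was TGATGNAA, with N any base, on both strands (TTNCATCA on the other). It was present in 5 of 13 cytosolic promoters, 0 of 14 mitochondrial promoters, and 1219 of 27025 genes with a promoter (4.51%). A match in each of the 5 is shown with 11 bases on either side in the direction of the gene, to compare the cores, which are in capitals.
Aars, chr8:111033840-111033869, + strand: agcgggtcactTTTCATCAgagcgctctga
Gars, chr6:55037960-55037989, + strand: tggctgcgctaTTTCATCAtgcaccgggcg
Iars, chr13:49682126-49682155, + strand: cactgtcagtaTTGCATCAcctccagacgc
Tars, chr15:11399655-11399684, - strand: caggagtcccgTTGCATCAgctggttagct
Yars, chr4:129189895-129189924, + strand: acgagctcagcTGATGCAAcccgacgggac
The matches of Gars and Tars lay 30 and 15 bases before the start. The match shown for Aars began at base 10 of the transcript, that of Iars at base 8 and that of Yars at base 4. Of these 5, the Yars match read TGATGCAA along the gene, and the other 4 lay on the opposite strand.

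Levels of genes with and without the core overlapped. The 5 with a match, Aars, Gars, Iars, Tars and Yars, had a median of 73.3 TPM and ranged between 20.1 and 193 TPM. The 8 other matched cytosolic genes had a median of 51.8 TPM and ranged between 6.70 and 226 TPM. A match is a string of letters and was not tested for binding.

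Genes of the integrated stress response were measured beside them, a pathway in which eIF2 kinases raise ATF4. Atf4 was the highest of the 20, with 294, 278 and 249 TPM in replicates 1, 2 and 3, and Trib3 the lowest, at 3, 2 and 2 counts. The median of the 20 was 20.0 TPM. The ATF4 target Asns, asparagine synthetase, stood above it at 179 ± 23.5 TPM, and Psat1 of serine synthesis at 143 ± 21.2 TPM. Asns and Psat1 were named after their values were seen.

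Other genes of tRNA charging also spanned wide ranges of level. The amidotransferase that completes mitochondrial glutamine tRNA has 3 subunits, and Gatc stood at 285 ± 28.0 TPM, Qrsl1 at 16.5 ± 3.36 and Gatb at 12.3 ± 4.20. Of 12 listed partners of charging and editing, not all of them mitochondrial, the deacylase gene Dtd1 was highest at 403 ± 13.6 TPM. The formyltransferase gene Mtfmt was lowest at 7.73 ± 0.76. Of 12 genes of tRNA processing, the nuclear tRNA exporter Xpot was highest at 101 ± 1.75 TPM and the thiouridylase Trmu lowest at 6.43 ± 0.73. Of 4 other synthetase-related genes, Tarsl2 was highest at 26.1 ± 5.33 TPM and Sepsecs, of selenocysteine tRNA, lowest at 4.76 ± 2.35. The subunits Gatc, Qrsl1 and Gatb were named after their values were seen.

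The last question was how much each message differed between libraries. Genes were tested for variation with a goodness of fit of a negative binomial model in edgeR, fitted to 14774 genes, of which 36 passed an adjusted p of 0.05 (0.244%) and 1066 an unadjusted p of 0.05 (7.22%). All 36 synthetases had enough counts to be tested. Apart from Lars2 and Vars2, 0 of 34 passed the adjusted threshold in edgeR and 2 of 34 (5.88%) an unadjusted p of 0.05, a share near that over all genes. A limma variance test also called 0 of 34, with 2 at an unadjusted p of 0.05. Each p-value asks whether a gene varied between the pools of mice beyond the spread fitted for genes of like abundance in these libraries.

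Those 2 genes were Ears2 and Lars. Ears2, the mitochondrial glutamate enzyme, had 7.07, 4.46 and 17.7 CPM in replicates 1, 2 and 3, from 89, 40 and 224 counts (edgeR adjusted p = 0.314). Replicate 3 was the high one, and without it the mean was 5.59 TPM, against 9.47 TPM with all 3 libraries. The cytosolic leucine enzyme Lars had 31.0, 12.3 and 20.6 CPM from 390, 110 and 261 counts (edgeR adjusted p = 0.489), with replicate 1 high and replicate 2 low. Neither passed the adjusted threshold under any of the alternatives run, where the lowest adjusted p was 0.0742 for Ears2, with a common dispersion, and 0.412 for Lars, without replicate 3.

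Vars2, the mitochondrial valine enzyme (ENSMUSG00000038838.15, mm10 chromosome 17, 35655634 to 35667592), had 107, 43 and 1177 counts in replicates 1, 2 and 3, or 7.76, 4.41 and 85.4 TPM. Its mean of 32.5 TPM over the libraries rests on replicate 3 and was 6.09 TPM without it. Genes beside it did not show the same excess. Gtf2h4, which lies 138 bases away and encodes a subunit of the transcription factor TFIIH, had 68, 102 and 63 counts, so replicate 3 was its lowest library. Sfta2 on the other side had 0 counts.

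Within 1 Mb of Vars2, 57 other genes were tested for variation in edgeR, of which 0 passed the adjusted threshold, against 0.244% of all genes, and 3 (5.26%) had an unadjusted p under 0.05, against 7.22%. In limma 0 passed and 1 had an unadjusted p under 0.05. Of the 57, 14 (24.6%) were highest in replicate 3, against 33.1% of all genes tested. Of the exonic bases of Vars2, 8.52% were shared with the antisense gene Gm20483, which has no row in the tables. The cytosolic counterpart Vars had 5.16, 4.35 and 6.72 CPM, so replicate 3 was the highest for both valine enzymes, though Vars did not pass the test (edgeR adjusted p = 1).

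Other cell types also differed between the libraries. The summed level of 6 astrocyte markers was 400.2, 419 and 553 CPM in replicates 1, 2 and 3, that of 4 oligodendrocyte markers 319, 447 and 451 CPM, that of 4 microglia markers 21.0, 24.3 and 23.6 CPM, that of 3 endothelial markers 2.86, 2.23 and 3.79 CPM and that of the 2 blood markers with a row 2.30, 1.67 and 1.98 CPM. Replicate 3 was highest for the astrocyte, oligodendrocyte and endothelial lists, as it was for Vars2, Ears2 and Fars2. Their part in these synthetase values was not tested.

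Cytosolic enzymes were tight between libraries. In 19 of 20 the highest library was under 2-fold above the lowest, the exception being Lars, and the median SD of log2 CPM was 0.18. Rars had 52.9, 57.9 and 55.7 CPM, Yars 83.3, 86.5 and 91.5 CPM, and Aars 95.5, 86.8 and 102 CPM. Mitochondrial enzymes were wider: without Lars2 and Vars2, 9 of 14 were under 2-fold and the median SD was 0.47 log2 units. Over all genes tested, 71.5% were under 2-fold and the median SD was 0.27.

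Counting error was larger for the mitochondrial enzymes, which had fewer reads. The median counts per gene were 851.5, 606 and 757.5 for cytosolic members in replicates 1, 2 and 3, and 91.5, 71.5 and 112 for mitochondrial members other than Lars2 and Vars2. The coefficient of variation over libraries had a median of 12.4% for cytosolic members, where counting alone gives 3.74%, and of 31.0% for those 14 mitochondrial members, where counting alone gives 10.9%. These counting figures treat reads as independent molecules and cover counting error only.

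The wide mitochondrial messages did not move together. Besides Vars2 and Ears2, Fars2 had 4.84, 2.90 and 8.54 CPM in replicates 1, 2 and 3 and was highest in replicate 3, whereas Hars2 had 16.1, 12.4 and 6.32 CPM and Rars2 21.5, 13.5 and 9.96 CPM, both lowest in replicate 3. Mars2 had 7.46, 3.12 and 6.17 CPM and was lowest in replicate 2. None of these 4 passed the edgeR test (adjusted p between 0.774 and 1), with 0 of 4 at an unadjusted p of 0.05. Wars2 was the steadiest mitochondrial member at 19.1, 22.2 and 21.7 CPM. Over the whole set, 11, 14 and 11 members were highest in replicates 1, 2 and 3.

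**Figure D4:**
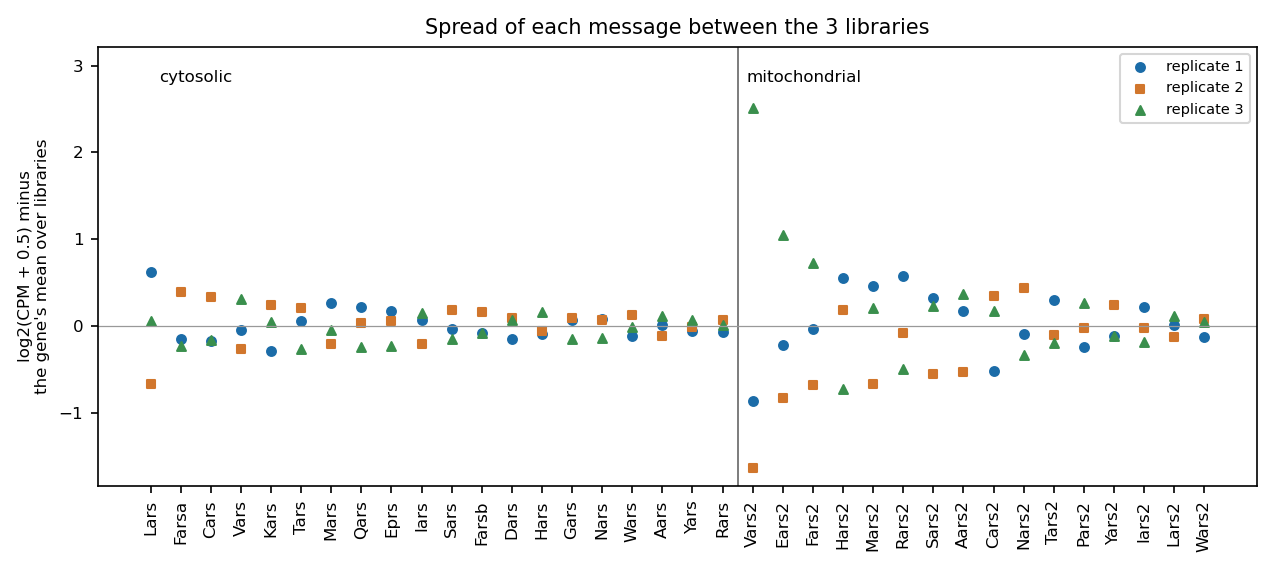
Difference between each library's log2(CPM + 0.5) and the gene's mean over the 3 libraries, for cytosolic members (left of the line) and mitochondrial members (right), each ordered by SD. Cytosolic points other than those of Lars stay close to 0, while Vars2 in replicate 3 stands more than 2 log2 units above its mean.

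Related genes were tested in the same way. Variation passed the adjusted threshold in edgeR for 0 of 3 complex scaffolds, 0 of 12 charging and editing partners, 0 of 12 tRNA processing genes, 0 of 4 other synthetase genes and 0 of 19 stress response genes tested, and limma called 0 in each list. At an unadjusted p of 0.05 both tools had 0 scaffolds, 1 partner, 0 processing genes, 0 other synthetase genes and 3 stress response genes. That is 8.33% of partners and 15.8% of stress response genes, against 7.22% of all genes in edgeR and 4.88% in limma. The partner was the release factor gene Mtrf1 with 17.2, 6.36 and 16.4 CPM, and the 3 others were Eif2ak1, Atf5 and Sesn2.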

How the data were processed

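Each library came as a table of unnormalized counts by symbol, as the authors deposited it. The submitters' processing notes name STAR 2.0.0e, HTSeq and mm10. Settings, annotation and use of strand are not stated, so reads of overlapping or antisense genes may not have been told apart. Lines that name no gene held 27.8% ± 0.56 of counts (SD, n = 3) and were left out of totals and tests.

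CPM used totals of named genes. TPM used merged exon lengths, with GENCODE M21 (mm10) joined on the symbol for 87.1% of the 18377 symbols with a count, so Rn45s is not part of TPM. Log2 values used a pseudocount of 0.5. A count of 0 allows up to 3 counts, or 0.238, 0.335 and 0.237 CPM in replicates 1, 2 and 3. Paired levels were compared with an exact sign-flip permutation test.

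Variation between libraries was tested with edgeR 4.0.16 (TMM, trended dispersion of estimateDisp, deviance against chi-square with 2 degrees of freedom, Benjamini-Hochberg over genes with at least 10 counts in a library), using R 4.3.3. Another trend estimator of edgeR was set aside after its result was seen, because its dispersion fell to near 0 for the most abundant genes. The script was tested on simulated counts in which sets of 50 genes were moved in 1 library. Only genes averaging at least 50 counts over the libraries were moved. It recovered 4 of 50 at 2-fold, 42 of 50 at 4-fold and 50 of 50 at 8-fold. There were 11 false calls among 14175 genes. A gene that was not called may therefore still differ 2-fold or more between libraries, and recovery at lower counts was not tested. Alternatives used DESeq2 1.42.0 size factors, a limma 3.58.1 variance test, other filters, lengths and pseudocounts, and each replicate left out. Transcripts were aligned with BLAST 2.17.0.

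The members, lists and tests were chosen with earlier results of these data known. All members were named. Of each other list the rule named the highest and lowest gene, any that varied, the genes beside Lars2 and Vars2, Rn45s and the highest marker of each type. Some items named by the rule are not reported here. Protein features were not analysed here.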

Additional observations from a re-analysis of the deposited data

How the results depend on the processing

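No comparison between conditions, paired or not, was possible because there was 1 group. The 34 members other than Lars2 and Vars2 were not called for variation (0 of 34) under any alternative run. Over all genes the 36 calls became 1097 with a common dispersion, 12 with limma, 18 at an adjusted p of 0.01 and 16 to 21 with each replicate left out. The excess of cytosolic over mitochondrial enzymes kept its direction under every alternative run and was 1.88 log2 units with the mean over members in place of the median, the mean giving Lars2 more weight. The median member level was 21.0 TPM, and 25.1 TPM with the longest transcript as the length. No member averaged under 1 TPM, so that filter removed none. No paired level reversed. The alternative with Rn45s and Lars2 left out of the totals was chosen after seeing the data. Low counts limit the mitochondrial values, and 3 libraries limit every pair. Protein features were not run.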
